A study of Mus musculus with 24 samples.

Results

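The inflammatory caspases Casp4 and Casp1, their adaptor Pycard, the NF-kB family genes Nfkb1, Nfkb2, Relb and Nfkbia, and the response genes Icam1, Vcam1 and Bcl2a1d were followed in mouse skeletal muscle across age and caloric restriction. Members were all probes whose annotated symbol was one of these 10 names. The array held 17 probes for 9 of them, among 34885 probes with a single symbol that stood for 19057 genes. Nfkb1 is not listed in the annotation used here and was not analysed. Both Pycard probes were not well above background on any of 24 arrays, so 8 genes entered the comparisons, among 8943 tested. The 10 genes were chosen by their differences between the 3 groups in these same mice. Their group values, SEs and adjusted p-values therefore describe where each gene stood in the fit over all genes, and they are no independent test.

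Gene expression was measured on Illumina bead arrays in the gastrocnemius, a largely fast-twitch muscle of the calf. The animals were males of B6D2F1, a hybrid of inbred strains, from an aging colony. The restricted old mice, 5 animals of 24 months on 7 arrays, were kept on chronic caloric restriction. The old ad libitum mice, 6 animals of 24 months on 7 arrays, and the young ad libitum mice, 6 animals of 8 months on 10 arrays, ate freely. Feeding state at sampling is not given in the sources used here. All 13 fast fibre marker genes were measured, and their median difference was -0.02 between old and young ad libitum mice. Levels are log2 normalized signals per mouse, each probe on a scale of its own. A probe counted as detected on an array where its detection p-value was under 0.01. The lowest detected level per array lay between 5.73 and 6.10, and several of the genes lay near it. The median SD between mice of a group was 0.17. Each p-value reflects the spread among these samples only, because the labels do not state in words that each name is a separate animal.

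Inflammatory caspases are proteases that start inflammation within a cell. Caspase-1, activated on inflammasomes through the adaptor encoded by Pycard, matures interleukin 1 beta, and the caspase encoded by Casp4 senses bacterial lipopolysaccharide in the cytosol. NF-kB transcription factors are held in the cytoplasm by inhibitors such as the product of Nfkbia. In the canonical branch the inhibitor is degraded, and in the non-canonical branch the precursor encoded by Nfkb2 is processed and enters the nucleus with RelB. Nfkb2, Relb, Nfkbia, Icam1, Vcam1 and the Bcl2a1 genes are known NF-kB targets. In muscle tissue these genes are known in infiltrating leukocytes, vessel walls and satellite cells as well as in fibres. In whole muscle, fewer cells of a type and less RNA per cell cannot be told apart.

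RefSeq promoter windows of GRCm38.p6, from 250 bases before to 50 bases after an annotated start, were at hand for 7 of the 10 genes, in 10 windows. The NF-kB consensus, searched on both strands, was found in windows of 3 genes, Casp4, Nfkb2 and Nfkbia, against 4.51% of all 32851 windows. The interferon gamma activation motif TTCNNNGAA, also searched on both strands, was found for Icam1 and Nfkb2, against 8.3% of all windows. Both shares are per window, while a gene could have several, partly overlapping windows, so they differ in unit from the counts of genes. Only exact matches to each pattern counted, and looser sites were not searched. The windows shown hold the letters of 1 motif in capitals, printed 5′ to 3′ on the strand of the gene. The first 4 show the NF-kB consensus in the caspase, subunit and inhibitor genes, and the last shows TTCNNNGAA in the adhesion gene.
Casp4, chr9:5308599-5308898 (plus strand): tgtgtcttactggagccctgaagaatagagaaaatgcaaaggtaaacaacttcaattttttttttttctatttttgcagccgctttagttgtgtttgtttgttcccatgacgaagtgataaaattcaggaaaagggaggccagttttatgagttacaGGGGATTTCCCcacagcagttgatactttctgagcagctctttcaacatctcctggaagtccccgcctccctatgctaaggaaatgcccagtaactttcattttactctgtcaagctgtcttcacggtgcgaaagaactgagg
Nfkb2, chr19:46304487-46304786 (plus strand): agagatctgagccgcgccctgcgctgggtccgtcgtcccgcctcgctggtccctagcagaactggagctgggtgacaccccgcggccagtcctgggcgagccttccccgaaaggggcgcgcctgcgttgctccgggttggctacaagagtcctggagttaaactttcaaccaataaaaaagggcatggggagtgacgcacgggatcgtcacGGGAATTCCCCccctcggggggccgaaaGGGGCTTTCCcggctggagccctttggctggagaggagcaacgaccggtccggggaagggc
Nfkb2, chr19:46305445-46305744 (plus strand): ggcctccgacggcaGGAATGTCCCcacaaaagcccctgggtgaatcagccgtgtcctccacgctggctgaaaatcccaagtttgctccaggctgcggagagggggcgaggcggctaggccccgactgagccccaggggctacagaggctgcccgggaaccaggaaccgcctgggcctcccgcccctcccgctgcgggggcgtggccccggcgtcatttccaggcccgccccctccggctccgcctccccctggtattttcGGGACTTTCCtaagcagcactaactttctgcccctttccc
Nfkbia, chr12:55492598-55492897 (minus strand): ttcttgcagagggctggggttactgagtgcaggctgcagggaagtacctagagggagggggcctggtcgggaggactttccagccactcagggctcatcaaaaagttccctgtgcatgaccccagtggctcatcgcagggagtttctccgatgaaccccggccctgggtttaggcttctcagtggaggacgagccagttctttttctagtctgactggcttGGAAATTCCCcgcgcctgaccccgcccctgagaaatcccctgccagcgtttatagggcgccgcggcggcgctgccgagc
Icam1, chr9:21015690-21015989 (plus strand): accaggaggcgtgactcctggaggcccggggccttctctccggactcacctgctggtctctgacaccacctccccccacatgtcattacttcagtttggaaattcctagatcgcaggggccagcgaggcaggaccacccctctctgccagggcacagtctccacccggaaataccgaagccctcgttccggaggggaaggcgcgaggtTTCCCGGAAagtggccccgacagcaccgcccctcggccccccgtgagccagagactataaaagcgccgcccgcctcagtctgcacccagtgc
In Casp4 a pair of overlapping matches began 93 and 92 bases before the start. In the first window of Nfkb2 matches began 39, 38 and 11 bases before the start, of which the first pair overlap, and in Nfkbia a match began 29 bases before it. In Icam1 the TTCNNNGAA match began 42 bases before the start. Casp1, Pycard and Bcl2a1d held neither set of letters in this window. A match is a description of the letters, not a bound site.

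All 8 measured genes had their highest group mean in old ad libitum mice. Between old and young ad libitum mice 5 genes were higher past an adjusted p of 0.05 in limma, Casp4, Icam1, Bcl2a1d, Nfkb2 and Relb, against 1.34% of all genes tested in that direction and 2.06% in either. For 4 of them, all but Icam1, every old mouse lay above every young mouse, against 1.57% of all genes. Between restricted and old ad libitum mice 4 genes were lower, Casp4, Casp1, Icam1 and Bcl2a1d, against 2.26% of all genes in that direction and 3.18% in either. In 5 genes, those 4 and Relb, every restricted mouse lay below every old ad libitum mouse, against 1.77% of all genes. These are mouse means, and some of the nearest mice lay closer together than repeat arrays of 1 mouse. Examples were Relb and Icam1 under restriction and Casp4 with age. Between restricted and young mice 0 of 8 passed, against 4.71% of all genes, and Relb alone had an unadjusted p under 0.05 in limma (p = 0.0188). These contrasts chose the genes, so nothing is read from the shares. The sizes depended on the background correction. Without it, and equally on the authors' deposited values, the log2 differences of Casp4, Bcl2a1d and Nfkb2 were about 0.5 times as large, and those of Icam1 and Relb also shrank by over 1.5 times, with no call lost. Casp4 and Bcl2a1d passed the detection filter mainly or only through old ad libitum arrays.

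**Figure D1:**
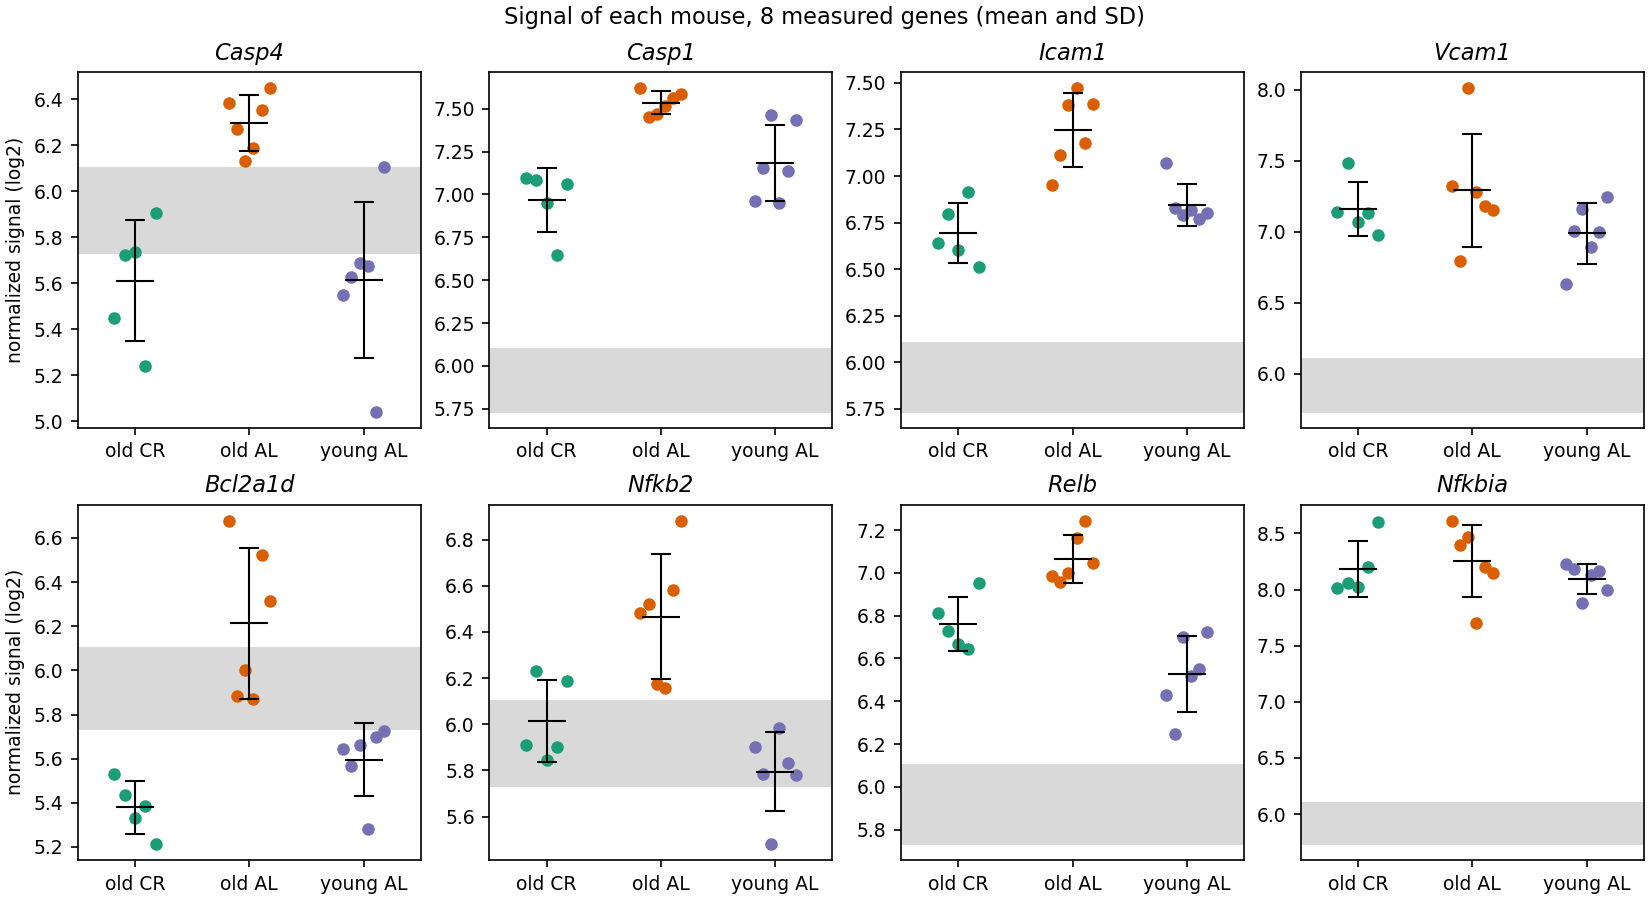
Normalized signal (log2) of each mouse for the 8 measured genes, with restricted old mice left, old ad libitum mice in the middle and young ad libitum mice right; points are mice, and bars are the mean and SD. For Casp4, Bcl2a1d and Relb the old ad libitum mice lie above all other mice, and for Vcam1 and Nfkbia the groups overlap.

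Among the caspases, Casp4 measured 5.45, 5.72, 5.73, 5.24 and 5.90 in the 5 restricted mice. It measured 6.13, 6.31 and 6.45 at the lowest, median and highest old ad libitum mouse. In young mice the lowest, median and highest were 5.04, 5.65 and 6.10. By mouse means, old ad libitum mice thus lay above both other groups without overlap, and restricted and young mice overlapped. The nearest old and young mice, at 6.13 and 6.10, lay closer than repeat arrays of 1 mouse, whose range had a median of 0.26. The probe was detected on 0 of 7 restricted, 7 of 7 old ad libitum and 3 of 10 young arrays. All 3 of those young arrays were of mouse 6, and the other 5 young mice were not well above background, so no fold is given against young mice. As fitted, Casp4 was higher in old than in young ad libitum mice (6.30 ± 0.12 and 5.61 ± 0.34, SD, n = 6 each; log2 difference 0.68 ± 0.14 SE, limma adjusted p = 0.0226). With no background correction the difference was 0.32 with age (adjusted p = 0.0247) and -0.32 under restriction (adjusted p = 0.0242). In restricted mice it was not well above background, so only a bound is given, with each restricted array set to the higher of its own and its lowest detected level. Casp4 was at least 1.24-fold lower in restricted than in old ad libitum mice (measured means 5.61 ± 0.26 and 6.30 ± 0.12, SD, n = 5 and 6; limma adjusted p = 0.022). A second probe, detected on 3 arrays, differed by 0.37 with age and -0.37 under restriction, and the other probe, detected on 1 array, by 0.00 and 0.12.

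Casp1, the neighbour of Casp4 on chromosome 9, was detected on all 24 arrays. Its levels were 7.09, 7.08, 6.95, 6.65 and 7.06 in restricted mice. They were 7.45, 7.54 and 7.62 at the lowest, median and highest old ad libitum mouse, against 6.95, 7.15 and 7.46 in young mice. All restricted mice lay below all old ad libitum mice, and a young mouse reached just above the lowest of the old. Casp1 was 1.48-fold lower in restricted than in old ad libitum mice (-0.57 ± 0.10 SE, limma adjusted p = 0.0115). Between old and young ad libitum mice the difference was 0.35 ± 0.10 SE (limma adjusted p = 0.0668). With no background correction these differences were -0.38 (limma adjusted p = 0.0113) and 0.24 (limma adjusted p = 0.0681). Restricted mice differed from young mice by -0.22, with a 95% interval from -0.43 to 0.00. The spread of the 6 old ad libitum mice was 0.07 (SD), against 0.22 in young mice.

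Of the NF-kB family genes, Relb was detected on all 24 arrays and measured 6.81, 6.73, 6.67, 6.64 and 6.95 in restricted mice. It measured 6.96, 7.02 and 7.24 at the lowest, median and highest old ad libitum mouse, and 6.25, 6.54 and 6.72 in young mice. The old ad libitum mice were above all others, and the restricted mice lay between, overlapping the young. Relb was 1.45-fold higher in old than in young ad libitum mice (0.54 ± 0.09 SE, limma adjusted p = 0.005). With no background correction its log2 difference was 0.32 (adjusted p = 0.0069). The difference of restricted from old ad libitum mice was -0.31 ± 0.09 SE and did not pass (limma adjusted p = 0.0685), although the groups did not overlap. The nearest mice, at 6.954 and 6.959, lay closer than repeat arrays of 1 mouse, whose range had a median of 0.19. Restricted mice differed from young mice by 0.23, with a 95% interval from 0.04 to 0.42 (limma adjusted p = 0.141).

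Nfkb2 had a like order of group means with more overlap. Its levels were 5.91, 6.23, 5.84, 5.90 and 6.19 in restricted mice. They were 6.16, 6.50 and 6.88 at the lowest, median and highest old ad libitum mouse, and 5.48, 5.81 and 5.99 in young mice. The old ad libitum mice lay above all young mice and overlapped the restricted mice. It was detected on 3 of 7 restricted, 7 of 7 old ad libitum and 3 of 10 young arrays. As fitted, Nfkb2 was higher in old than in young ad libitum mice (log2 difference 0.67 ± 0.12 SE, limma adjusted p = 0.00884). Most young arrays were not well above background, so no fold is given against young mice. Under restriction it differed by -0.45 ± 0.12 SE (limma adjusted p = 0.0553). With no background correction the age difference was 0.34 (adjusted p = 0.0172) and the restriction difference -0.23. With the chip as a block the age difference was 0.66 with adjusted p = 0.0568. Without restricted mouse 2 and old ad libitum mouse 3, which were high in neutrophil genes, the restriction difference was -0.56 with adjusted p = 0.028.

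Nfkbia, the gene of the inhibitor that NF-kB induces against itself, measured 8.01, 8.06, 8.03, 8.20 and 8.60 in restricted mice. It measured 7.70, 8.30 and 8.61 at the lowest, median and highest old ad libitum mouse, and 7.88, 8.15 and 8.23 in young mice. The 3 groups overlapped. The difference of old from young ad libitum mice had a 95% interval from -0.12 to 0.44, and that of restricted from old ad libitum mice from -0.37 to 0.22. A second probe, also detected on all 24 arrays, differed by 0.27 ± 0.13 and -0.10 ± 0.14 (SE).

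Icam1, an adhesion molecule that leukocytes bind on vessel walls, was detected on all 24 arrays. It measured 6.64, 6.80, 6.60, 6.92 and 6.51 in restricted mice. It measured 6.95, 7.28 and 7.47 at the lowest, median and highest old ad libitum mouse, and 6.77, 6.81 and 7.07 in young mice. All restricted mice lay below all old ad libitum mice, while 1 young mouse at 7.07 overlapped the old. On its first array restricted mouse 2 read 7.05, above the lowest old ad libitum mouse. Icam1 was 1.47-fold lower in restricted than in old ad libitum mice (-0.55 ± 0.10 SE, limma adjusted p = 0.0101). It was 1.32-fold higher in old than in young ad libitum mice (0.40 ± 0.09 SE, limma adjusted p = 0.0374). With no background correction these differences were -0.35 and 0.26, both still past the threshold. The age call was lost under 6 of 14 alternatives, among them the chip as a block (adjusted p = 0.1), and in 7 of 17 fits that left out a mouse (old ad libitum mouse 4, 5 or 6, or young mouse 2, 3, 4 or 5).

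Vcam1, the ligand of leukocyte integrins on endothelium and also a satellite cell marker, measured 7.14, 7.48, 7.07, 7.13 and 6.98 in restricted mice. It measured 6.79, 7.23 and 8.01 at the lowest, median and highest old ad libitum mouse, and 6.63, 7.001 and 7.25 in young mice. The groups overlapped. The age difference had a 95% interval from -0.02 to 0.63, and the restriction difference from -0.47 to 0.21. Old ad libitum mouse 3 set the highest value, and restricted mouse 2 the highest of its group. In the same mice the neutrophil genes S100a8 and S100a9 were high, with S100a8 at 11.69 in restricted mouse 2, against 8.74 in the next restricted mouse, and at 12.96 in old ad libitum mouse 3, against 7.48 in the next of its group. Without these 2 mice the age difference of Vcam1 was 0.16 and the restriction difference -0.07. Their part in the result was not tested further. The 3 other Vcam1 probes were detected on 0 arrays.

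Bcl2a1d, a survival gene of the BCL2 family known in blood cells, measured 5.53, 5.43, 5.33, 5.39 and 5.21 in restricted mice. It measured 5.87, 6.16 and 6.68 at the lowest, median and highest old ad libitum mouse, and 5.28, 5.65 and 5.73 in young mice. All old ad libitum mice lay above all others. It was detected on 0 of 7 restricted, 5 of 7 old ad libitum and 0 of 10 young arrays. With restricted arrays at their bound, Bcl2a1d was 1.17-fold lower in restricted than in old ad libitum mice (measured means 5.38 ± 0.12 and 6.21 ± 0.34, SD, n = 5 and 6; limma adjusted p = 0.00662). With young arrays at theirs, it was 1.24-fold higher in old than in young ad libitum mice (6.21 ± 0.34 and 5.60 ± 0.16, SD, n = 6 each; limma adjusted p = 0.0239). Old ad libitum mice 2 and 4 were also not detected and entered as measured, so neither fold is a strict lower bound. With no background correction the differences were -0.39 (adjusted p = 0.0113) and 0.29 (adjusted p = 0.0366). A second probe was detected on 0 arrays. Its near-identical paralog Bcl2a1b, whose probe may share transcripts with it, measured 6.18, 6.40, 6.24, 6.27 and 6.01 in restricted mice, against 6.35, 6.77 and 7.05 at the lowest, median and highest old ad libitum mouse. Bcl2a1b was lower under restriction (-0.51 ± 0.12 SE, limma adjusted p = 0.0288, and 0.186 with all arrays and the mouse as a random block) and differed by 0.41 with age (limma adjusted p = 0.0623).

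**Figure D2:**
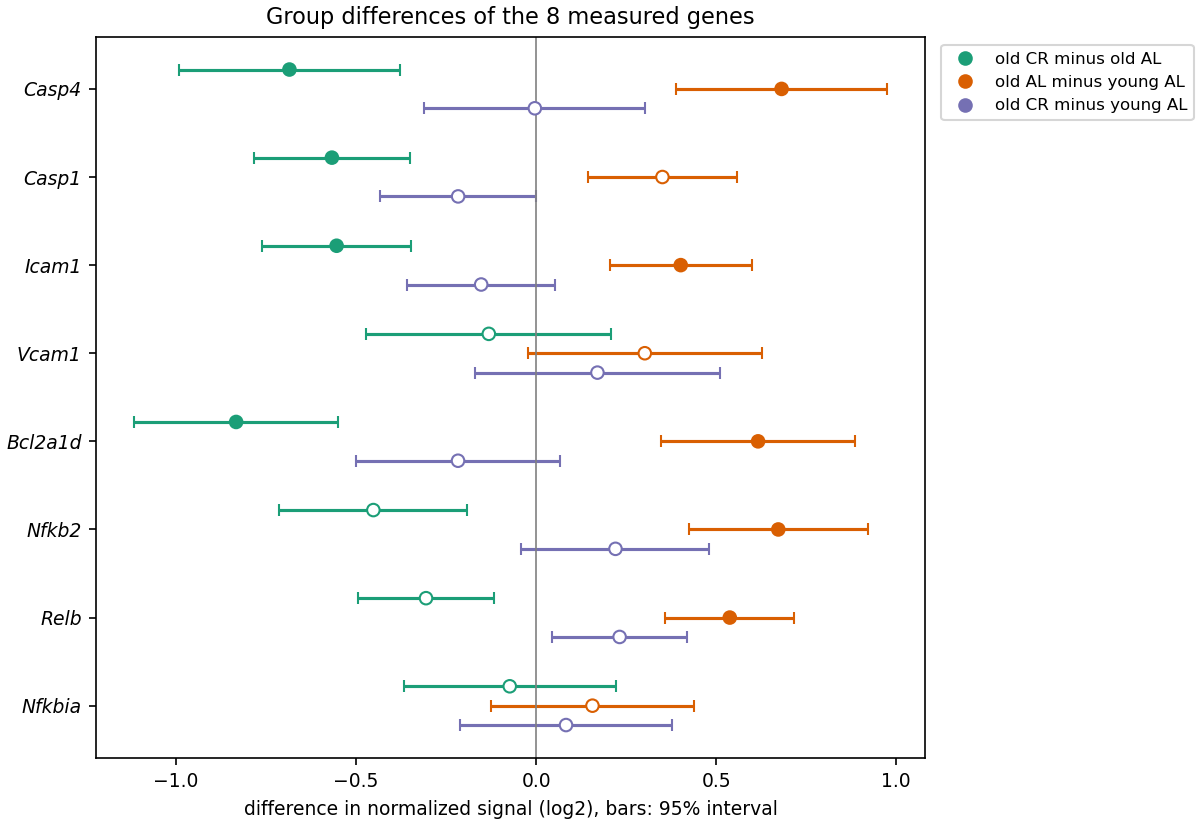
Differences in normalized signal (log2) of the 8 measured genes for restricted (CR) against old ad libitum (AL), old ad libitum against young and restricted against young mice; bars are 95% intervals, and filled points passed an adjusted p of 0.05. All 8 genes lie above 0 with age and below 0 under restriction, and intervals of Vcam1 and Nfkbia include 0 in both; restricted Casp4 and restricted and young Bcl2a1d lie below background, so those points are fitted values.

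Leaving out single mice ended calls for several genes. The age difference of Casp4 lost its call without young mouse 2 (adjusted p = 0.0592), and that of Bcl2a1d without young mouse 2, young mouse 4 or old ad libitum mouse 5. The restriction difference of Casp4 lost its call without restricted mouse 1 (adjusted p = 0.066) or restricted mouse 4 (adjusted p = 0.055). Relb and Nfkb2 with age, and Casp1, Icam1 and Bcl2a1d under restriction, kept their calls in each of the 17 fits. Nfkb2 under restriction gained a call without restricted mouse 2 or 5 or old ad libitum mouse 3 or 4, Relb without restricted mouse 5 (adjusted p = 0.0331), and Casp1 with age without young mouse 6 (adjusted p = 0.0444). The median over the 8 genes was 0.47 with age and -0.50 under restriction, against 0.02 and -0.02 over all genes. With the undetected groups at their bound these medians were 0.38 and -0.31. Only groups without any detected array were set so. Casp4 and Nfkb2 in young mice, and Nfkb2 in restricted mice, entered as fitted although most arrays were not detected.

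Every one of the 4 chips carried 6 arrays, with all 3 groups on each. The chips shared mice and were not independent: young mouse 6 lay on 4 chips, and young mouse 2, old ad libitum mouse 3 and restricted mice 2 and 5 on 2 each. Old ad libitum mice had 1 array on chip 3, and restricted mice 1 on chip 4. Within chips all 8 genes were higher in old than in young ad libitum mice on 4 of 4 chips, with Nfkb2 between 0.45 and 1.07, Relb between 0.33 and 0.70, and Casp4 between 0.36 and 0.69. Icam1 ran from 0.01 to 0.61. Under restriction 6 genes were lower on 4 of 4 chips, with Casp1 between -0.74 and -0.45, and Icam1 between -0.84 and -0.43. Vcam1 and Nfkbia were lower on 3 of 4. These signs come from the same arrays that chose the genes, so they are no separate test. The share of all genes with such signs was not computed. In the 5 mice with more than 1 array, the range between arrays of a mouse had a median of 0.08 for Casp1 and 0.29 for Nfkb2, so Casp1 was measured with less technical spread than Nfkb2.

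**Figure D3:**
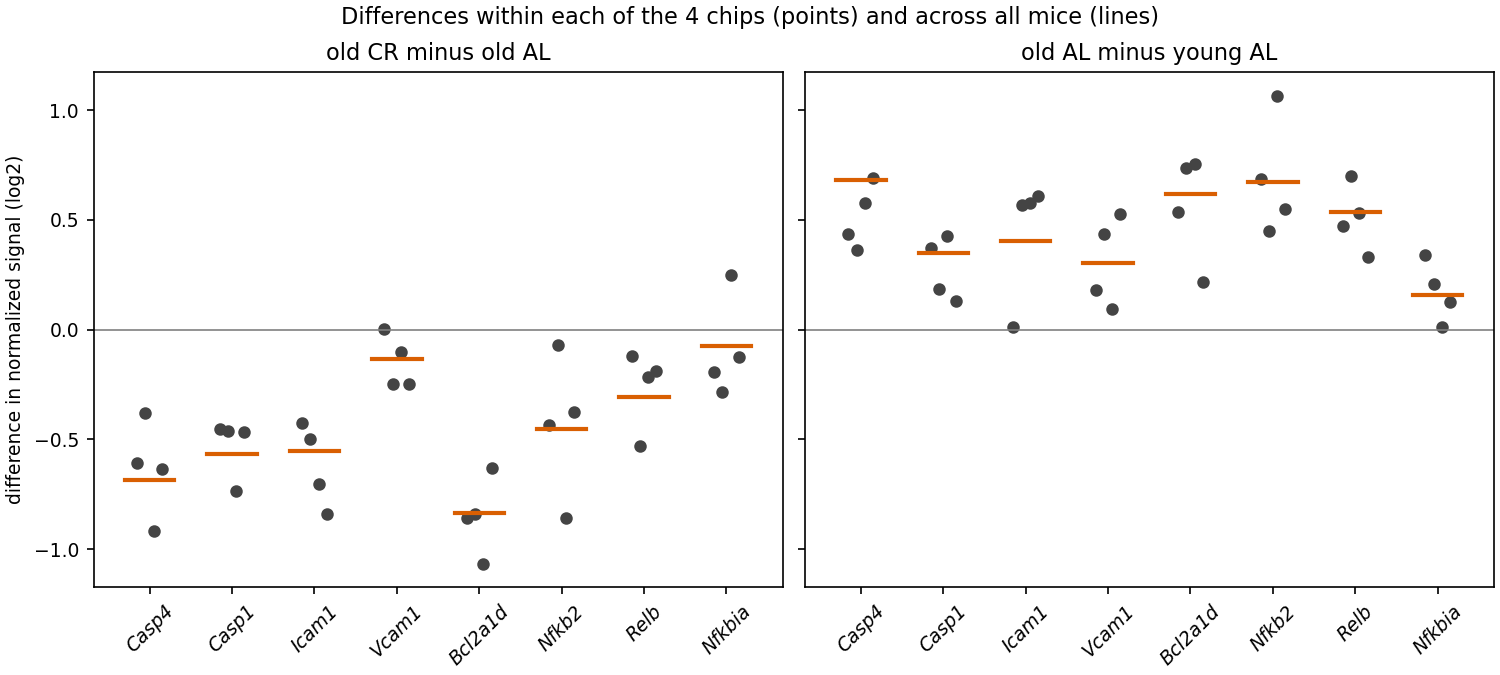
Differences in normalized signal (log2) within each of the 4 chips (points) and across all mice (lines), for the 8 measured genes in restricted against old ad libitum mice (left) and in old ad libitum against young mice (right). With age all 32 points lie above 0, and under restriction 6 genes have all points below 0. The same arrays chose the genes.

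Deviations of each mouse from its group mean do not carry the group differences that chose the genes, so relations between pairs were examined on them over 17 mice. Of 28 pairs, 0 passed an adjusted p of 0.05 in the permutation test, while 2 had an unadjusted p under 0.05 by Pearson and 3 by Spearman. The correlations ran from -0.46 to 0.58 with a median of 0.06. The 2 farthest mice, left out as a check, were those farthest from the median of the first-named gene of a pair. A mouse far out in the second gene could therefore remain. Casp1 and Relb had the highest (r = 0.58, permutation p = 0.0416, adjusted 0.467; rho = 0.65, permutation p = 0.013, adjusted 0.182; r = 0.481 without the 2 farthest mice). Casp4 and Casp1 followed (r = 0.545, permutation p = 0.0822, adjusted 0.576; rho = 0.571, permutation p = 0.0298, adjusted 0.278; r = 0.537 without the 2 farthest mice). Casp1 and Bcl2a1d had the smallest p by both measures (r = 0.387, permutation p = 0.0281, adjusted 0.467; rho = 0.534, permutation p = 0.0122, adjusted 0.182; r = 0.483 without the 2 farthest mice). Bcl2a1d was detected on 0 of 7 restricted, 5 of 7 old ad libitum and 0 of 10 young arrays, and Casp4 on 10 of 24. Deviations of these genes are therefore largely of signals near background. Nfkb2 and Relb had r = -0.05 (permutation p = 0.864, adjusted 0.896; rho = 0.02, permutation p = 0.945, adjusted 0.945; r = 0.134 without the 2 farthest mice).

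The genes whose deviations were most like those of each measured gene were taken from all 8943 genes, as a description over 17 mice that share arrays and normalization. The highest of so many correlations over so few mice are large by selection alone. No chance level was computed, so nothing is read from the names. Casp4, Bcl2a1d and Nfkb2 also lay near background on many arrays, which limits their entries further. For Casp1 they were Trem2 (r = 0.81, rho = 0.848), H2-DMb1 (r = 0.775) and Nme4 (r = 0.769). For Casp4 they were Cxcl16 (r = 0.734, rho = 0.652), Pafah2 and Tlcd1. For Icam1 they were Gtf2e2 and Tnks2 (r = 0.812 each) and Tmx4, and for Vcam1 Mad2l1 (r = 0.816), Plek and Cdc6. For Bcl2a1d they were Zfp830 (r = 0.857), Pdcd10 and the paralog Bcl2a1b (r = 0.732, rho = 0.659). Nfkb2 was most like Msrb1 (r = 0.876), Cmc2 and Dpp3, Relb most like Mydgf (r = 0.835), Scnm1 and Ssna1, and Nfkbia most like Nudt3 (r = 0.89), Eif3k and Setd3.

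The other genes of these pathways were taken as lists. The share of all genes at an unadjusted p under 0.05 was not computed, so nothing is read from such counts. Of 26 measured NF-kB subunits, kinases and inhibitors, 0 passed with age (7 at an unadjusted limma p under 0.05) and 0 under restriction (3 at an unadjusted p under 0.05), with medians of 0.10 and -0.05. Map3k14, the kinase that starts processing of the Nfkb2 precursor, was higher in restricted than in young mice (6.84 ± 0.14 and 6.40 ± 0.16, SD, n = 5 and 6; 0.43 ± 0.11 SE, limma adjusted p = 0.0324), a call kept in 11 of 17 fits that left out a mouse. Rela, the main canonical subunit, differed by 0.00 with age and -0.20 under restriction. Of 18 measured receptors and adaptors upstream of NF-kB, 0 passed with age (4 unadjusted) and 0 under restriction (8 unadjusted), with 14 of 18 lower in restricted than in old ad libitum mice and a median of -0.19, where 55.3% of all genes tested were lower. Traf6, an adaptor ligase of Toll-like receptors, was lower in restricted than in young mice (-0.37 ± 0.09 SE, limma adjusted p = 0.0312). That call was kept in 10 of 17 fits that left out a mouse and lost with the mean of its probes (-0.21, adjusted p = 0.0885).

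Of 10 measured inflammasome genes, 0 passed in limma with age (3 at an unadjusted p under 0.05) and 0 under restriction (2 unadjusted), with medians of 0.00 and -0.13. The inflammasome genes Nlrp3, Aim2 and Nlrc4 and the cytokines Il1b and Il1a were detected on 0 arrays. Of 7 other caspase genes, 0 passed in limma in either comparison (1 and 2 unadjusted), and both medians were 0.00. Nlrc4 acts in the inflammasome response to bacterial proteins, Aim2 senses DNA, and Il1b and Il1a encode the interleukin 1 cytokines.

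Of 19 other measured NF-kB targets, 3 were called lower in restricted than in old ad libitum mice, against 2.26% of all genes in that direction. With age 0 passed in limma (4 at an unadjusted p under 0.05). The medians were -0.18 under restriction and 0.07 with age. The chemokine genes Ccl5 and Ccl7 were not well above background on any of 7 restricted arrays. With those arrays at their bound they were 1.37-fold and 1.25-fold lower than in old ad libitum mice (limma adjusted p = 0.017 and 0.0318). Each was detected on 6 of 7 old ad libitum arrays and the other array entered as measured, so these folds are no strict lower bounds. Cd44, a hyaluronan receptor, was lower by both comparisons, with 7.09 ± 0.15 in restricted, 7.65 ± 0.28 in old ad libitum and 7.59 ± 0.19 in young mice (SD, n = 5, 6 and 6; limma adjusted p = 0.0263 against old and 0.0324 against young). With restricted arrays at their bound, Ccl7 was also 1.19-fold lower in restricted than in young mice (limma adjusted p = 0.0339). It was detected on 8 of 10 young arrays, so this too is no strict lower bound. On leaving out each mouse the restriction call was kept in 16 of 17 fits for Ccl5 (all but that without restricted mouse 3, adjusted p = 0.0506), in 13 for Ccl7 and in 12 for Cd44. The calls against young mice were kept in 10 of 17 for Ccl7 and in 10 of 17 for Cd44. With the mean of its probes Cd44 differed by -0.43 from old ad libitum mice (adjusted p = 0.0687) and by -0.23 from young mice (adjusted p = 0.317). Ccl2, Il6, Ptgs2 and Nos2 were detected on 0 arrays.

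Of 13 measured BCL2 family genes 3 were called lower in restricted than in old ad libitum mice, Bcl2, Bcl2a1b and Bok, against 2.26% of all genes. With age 0 passed in limma (4 at an unadjusted p under 0.05). Bcl2, the founding survival gene, averaged 7.25 ± 0.07 in restricted, 8.20 ± 0.53 in old ad libitum and 8.34 ± 0.20 in young mice (SD, n = 5, 6 and 6). It differed from old ad libitum mice by -0.95 ± 0.19 SE (limma adjusted p = 0.017) and from young mice by -1.10 ± 0.19 SE (limma adjusted p = 0.00558). The call against old ad libitum mice was lost with the replicate number as a block (limma adjusted p = 0.0609). It was also lost when only those groups were fitted (limma adjusted p = 0.068). Both calls were kept in 17 of 17 fits that left out a mouse. The restriction calls of Bcl2a1b and Bok (-0.41, limma adjusted p = 0.0359) were kept in 11 and 10 of 17. Old and young ad libitum mice differed in Bcl2 by -0.15 ± 0.18 SE, where Bcl2a1d differed by 0.62 ± 0.13 SE as fitted. Of 15 measured adhesion molecules and integrins, 0 passed with age (3 at an unadjusted limma p under 0.05) and 0 under restriction (4 unadjusted), with medians of 0.01 and -0.07, and 13 of 15 lower in restricted mice, against 55.3% of all genes. Cd99l2 was lower in restricted than in young mice (-0.45 ± 0.10 SE, limma adjusted p = 0.0173), a call lost with the mean of its probes (-0.27, adjusted p = 0.132), without restricted mouse 3 (adjusted p = 0.0569) and without the 2 mice high in neutrophil genes (adjusted p = 0.0516). The integrin genes Itgal, Itgam, Itgb2 and Itga4 and the selectin gene Sele were detected on 0 arrays.

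**Figure D4:**
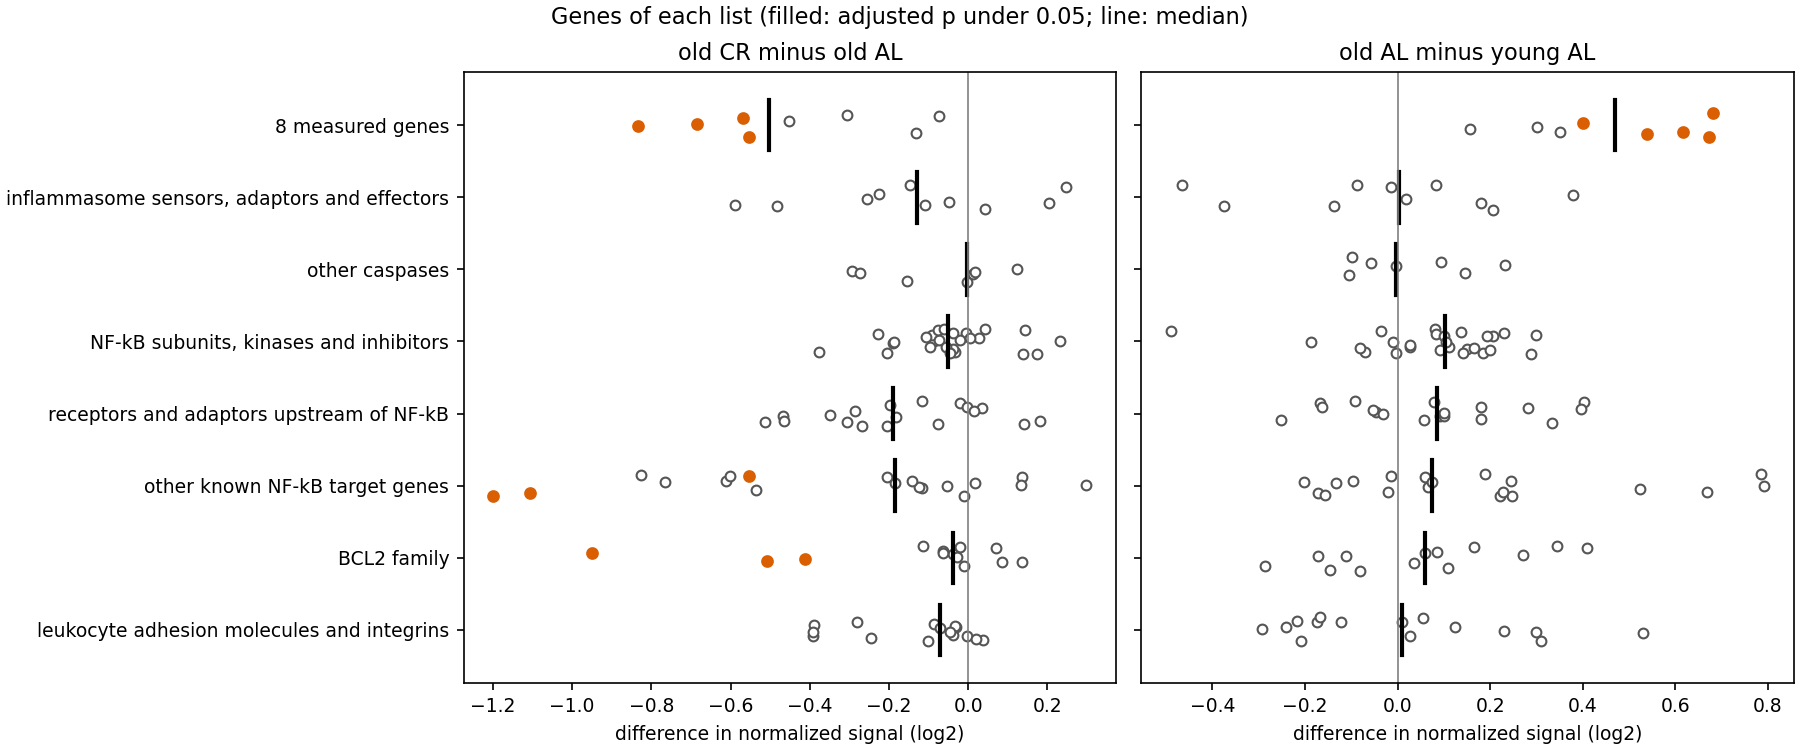
Differences in normalized signal (log2) of the 8 measured genes (top row) and of each measured gene of the 7 pathway lists, for restricted against old ad libitum mice (left) and for old ad libitum against young mice (right); filled points passed an adjusted p of 0.05 and lines are medians. In the 7 lists, filled points appear under restriction among NF-kB targets and the BCL2 family, and none appears with age.

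Markers of other cell types moved with some of these differences. Of 17 measured macrophage markers, 14 were lower in restricted than in old ad libitum mice, with a median of -0.36, against 55.3% of all genes lower. Mpeg1 (-1.22, limma adjusted p = 0.00347) passed, also in 17 of 17 fits that left out a mouse. Tyrobp (-0.72, limma adjusted p = 0.0421) kept its call in only 6 of 17, and differed by -0.36 with no background correction (adjusted p = 0.052). With age 13 of 17 macrophage markers were higher, with a median of 0.16 and 0 past the threshold, against 54.2% of all genes higher. Their summed linear level ran from 7000 to 10337 in restricted mice, from 7360 to 15347 in old ad libitum mice and from 9488 to 12561 in young mice. Each probe has a scale of its own, so the brightest weigh most in this sum. These were Lyz1 and Lyz2, with log2 means of 12.34 and 10.75 in old ad libitum mice. Ptprc, Itgam and Fcgr1 were detected on 0 arrays. Of 14 measured endothelial markers, 0 passed in limma in these comparisons, with medians of -0.04 under restriction and -0.12 with age. Of 18 lymphocyte markers 2 were measured, of which Cd52 was lower in restricted than in old ad libitum mice (-1.21, limma adjusted p = 0.0145), and Cd3e, Cd4 and Cd8a were detected on 0 arrays. Of 12 measured fibroblast markers, 12 were lower in old than in young ad libitum mice (median -0.49), against 45.8% of all genes. In restricted mice 11 were higher than in old ad libitum mice (median 0.18), against 44.7% of all genes. In limma 0 passed the threshold in either comparison (7 and 1 at an unadjusted p under 0.05). Of 7 measured satellite cell markers, Vcam1 among them, Myod1 was higher (0.62, limma adjusted p = 0.0452) and Heyl lower (-0.62, limma adjusted p = 0.0413) in old than in young ad libitum mice, calls kept in 5 and 10 of 17 fits that left out a mouse. The part of these cells in the differences of the caspase and NF-kB genes was not tested.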

How the data were processed

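Of the deposited tables, the non-normalized one gives a mean signal intensity and a detection p-value for each probe on each array, per the file headers, made with GenomeStudio per the submitters' processing notes. The authors' series matrix holds intensity values of the same arrays, used as an alternative. Probes were named through the platform annotation, where 34885 of 45281 probes had 1 symbol, 18 several and 10378 none listed. Median signals per array ran from 82.9 to 119.7, and the number of mice limits the precision. Repeated names in the labels were taken as arrays of 1 mouse.

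Background correction and quantile normalization used neqc (limma 3.58.1 under R 4.3.3, offset 16). The offset narrows the log2 differences of dim probes, while the background correction widens them relative to uncorrected signals. The filter asked for detection (p under 0.01) on 5 or more arrays and left 15268 probes, of which 2003 had no symbol and stayed out. Values were averaged over the arrays of each mouse, and the probe with the highest mean stood for a gene. Groups were compared with limma (lmFit, eBayes, 1 fit over 17 mice, two-sided, Benjamini-Hochberg over 8943 genes). Within-group deviations were tested by permutation with 100000 draws. The procedure was tested on simulated data. The genes followed and the lists were chosen with earlier results of these data known. Named were the 10 genes, every list gene or marker past the threshold (up to 6 a list) and the 3 most alike genes of each. The 2 most abundant markers of each cell type were also planned to be named, but most of them are not. Other list genes and markers, such as those at 0 arrays, were named after their values were seen. Alternatives were other scalings, filters, probe rules, blocks and weights, and leaving out each mouse; leaving out the 2 mice high in neutrophil genes was chosen after seeing the data. RefSeq sequences matched 7 of 10 genes by symbol.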

Additional observations from a re-analysis of the deposited data

Results flagged for a closer look

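Within groups of 5 or 6 mice, 30 sets of values were checked for a mouse far from the others, and 2 stood out, where chance gives about 1 in 20. Bcl2a1d in young mouse 4 was the lowest of its group at 5.28, with the nearest mouse at 5.57, and the probe was detected on 0 young arrays. Icam1 in young mouse 1 was the highest of its group at 7.07, with the nearest mouse at 6.83, and this mouse alone overlapped the old ad libitum mice.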

How the results depend on the processing

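The count of genes called with age was 184, and it was 280 with scaling to the 75th percentile (226 higher and 54 lower, against 120 and 64), 95 with no detection filter, 284 with the mouse as a random block, 281 with the chip added as a block, 286 with the mean of the probes and 482 with array weights. Leaving out each mouse gave 32 (without young mouse 2) to 262. For restricted against old ad libitum mice the count was 284, and 24 when only those groups were fitted, with 66 (without restricted mouse 1) to 502 (without restricted mouse 5) on leaving out each mouse. For restricted against young mice it was 421, and it was 273 with no filter, 1147 with array weights, 180 without the 2 mice high in neutrophil genes and 131 (without restricted mouse 3) to 691 (without restricted mouse 5) on leaving out each mouse; scaling to the 75th percentile gave 208 higher and 166 lower, against 181 and 240. Of the genes followed, 5 passed with age and 3 with the stricter filter, which left out Casp4 and Bcl2a1d, and 2 (without young mouse 2) to 6 on leaving out each mouse, with 3 on leaving out old ad libitum mouse 5 or young mouse 4. Under restriction 4 passed, 2 with the stricter filter and 3 (without restricted mouse 1 or 4) to 6 on leaving out each mouse. The restriction call of Icam1 was lost when only those groups were fitted (adjusted p = 0.0578), and that of Casp4 with the first array of each mouse (0.0524). Casp1 with age passed with the mouse as a random block (0.0371). Of 738 differences of the genes followed under 31 settings, 11 had the opposite sign, none of them past the threshold. With no background correction, or on the authors' values, no call of the genes followed changed with age or under restriction, while the sizes shrank up to 2.16 times. The cause of these changes was not tested.

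Same-numbered mice did not deviate together (correlations from -0.25 to 0.19), so the numbers were not taken to pair mice. With the replicate number as a block the counts were 107 with age, 88 under restriction and 244 for restricted against young mice, and Casp4 under restriction had an adjusted p of 0.0634. Probes near background limit what can be said of Casp4, Bcl2a1d and Nfkb2.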
